A study of Saccharomyces cerevisiae and Saccharomyces paradoxus and Saccharomyces mikatae with 10 samples.

Results

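Transcript levels of genes that build, remodel and cut the yeast cell wall were compared across strains of 3 Saccharomyces species. The set was defined by systematic name and comprised 47 genes, chosen by function with earlier results of these data known. Of these, 30 had a value, out of 4325 genes in all, and the remaining 17 were not analysed here. The 30 genes fell into a mannoprotein group of 10, 10 genes of glucan synthesis and remodelling, 4 genes of chitin synthesis, 3 genes of daughter cell separation and 3 yapsins. The mannoprotein group also holds ZEO1, a membrane-associated protein, and later counts of mannoprotein genes include it. The 17 genes without a value were HSP150, CIS3, FLO11, TIR1 and TIR3 among the mannoproteins, FKS1, FKS3, GAS1, GAS3, SCW4, SCW10, EXG1 and EXG2 among the glucan genes, CHS5 among the chitin genes, and CTS1, DSE4 and EGT2 among the separation genes.

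The yeast wall is a mesh of beta-glucan and chitin with an outer coat of heavily glycosylated mannoproteins. Synthases in the plasma membrane spin out glucan and chitin, transglycosylases at the surface cut and rejoin the chains, and yapsins (surface aspartic proteases anchored through glycosylphosphatidylinositol, GPI) trim wall proteins. At the end of each division a chitin septum closes the neck, and hydrolases made in the daughter cell then digest the wall from the daughter side so that the cells part.

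Messenger RNA was sequenced from 9 strains, each started from a single colony. Of these, N17 and N44 belong to Saccharomyces paradoxus and IFO1815 to Saccharomyces mikatae, all 3 labelled wild. The other 6 belong to Saccharomyces cerevisiae, of which YPS606 and DBVPG1788 were wild, DBVPG6040 came from fruit juice, Y9 from a distillery, BC187 from wine and YJM145 from a clinical source. The cultures of all strains were grown at 30 °C in medium that held 0.15% peptone, 0.1% yeast extract and, as sugars, sucrose (1%), glucose (0.5%) and fructose (0.5%), and were harvested at an optical density of 0.5 after a start at 0.1. The authors merged the 2 libraries of YPS606 into a single column, so each strain has 1 value per gene and the strains are the replicates. The p-values therefore measure the spread between strains, and nothing about the spread between cultures of one strain is known.

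Values are treated as RPKM (reads scaled to gene length and library total), a unit inferred from the numbers themselves. In the S. cerevisiae strains the low values stepped in whole reads and gave implied totals of 57.9 M (mega, for Y9) to 153 M (for YPS606). The depth of the S. paradoxus and S. mikatae strains is unknown. IFO1815 stood apart, with 426 genes listed at 0 against 1 to 5 in each other strain, and 6 of the 30 cell wall genes had no value there while 2 were listed at 0. A gene list of haploid and mating functions (11 genes measured) summed to 3623 RPKM in N17, 811 RPKM in N44 and 1242 RPKM in IFO1815, against 59.4 to 96.8 RPKM in the S. cerevisiae strains, and 10 of the 11 genes were higher in S. paradoxus in the test described further on. None of the 11 was listed at 0 in any strain, and the part of this difference in the cell wall results was not tested.

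The 30 genes ranged in level from 0.210 RPKM (DAN1 in DBVPG6040) to 46556 RPKM (CCW12 in the same strain) where a value was above 0. CCW12 (YLR110C, chromosome XII, 369697 to 370098 in the R64 assembly), a small GPI-anchored mannoprotein that stabilises newly made wall, was the highest of all genes in the 8 strains where it had a value. That rank was already known when the set was drawn up. CCW12 stood at 20270 RPKM in N17 and 26453 RPKM in N44, and in S. cerevisiae at 31363 RPKM in YPS606, 42286 in DBVPG1788, 46556 in DBVPG6040, 29333 in Y9, 36931 in BC187 and 36908 in YJM145. Both S. paradoxus strains thus lay below every S. cerevisiae strain. All 30 genes together took 8.17% of the summed values in N17 and 7.74% in N44, against 9.68% (Y9) to 12.6% (DBVPG6040) in S. cerevisiae. ECM33, which has no value in S. paradoxus, is missing from those 2 sums. Without CCW12 the share was 4.29% in N17 and 2.45% in N44, against 3.13% (BC187) to 3.90% (Y9) in S. cerevisiae. N17 thus stood above and N44 below the S. cerevisiae strains once that gene was set aside. SED1, the next highest gene, weighs most in this share. It stood at 10999 RPKM in N17 and 3905 RPKM in N44, against 6813 to 7405 RPKM in S. cerevisiae. The split is therefore not read as a shift of the whole set. The plot of levels by gene shows how the role groups differ in abundance.

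**Figure D1:**
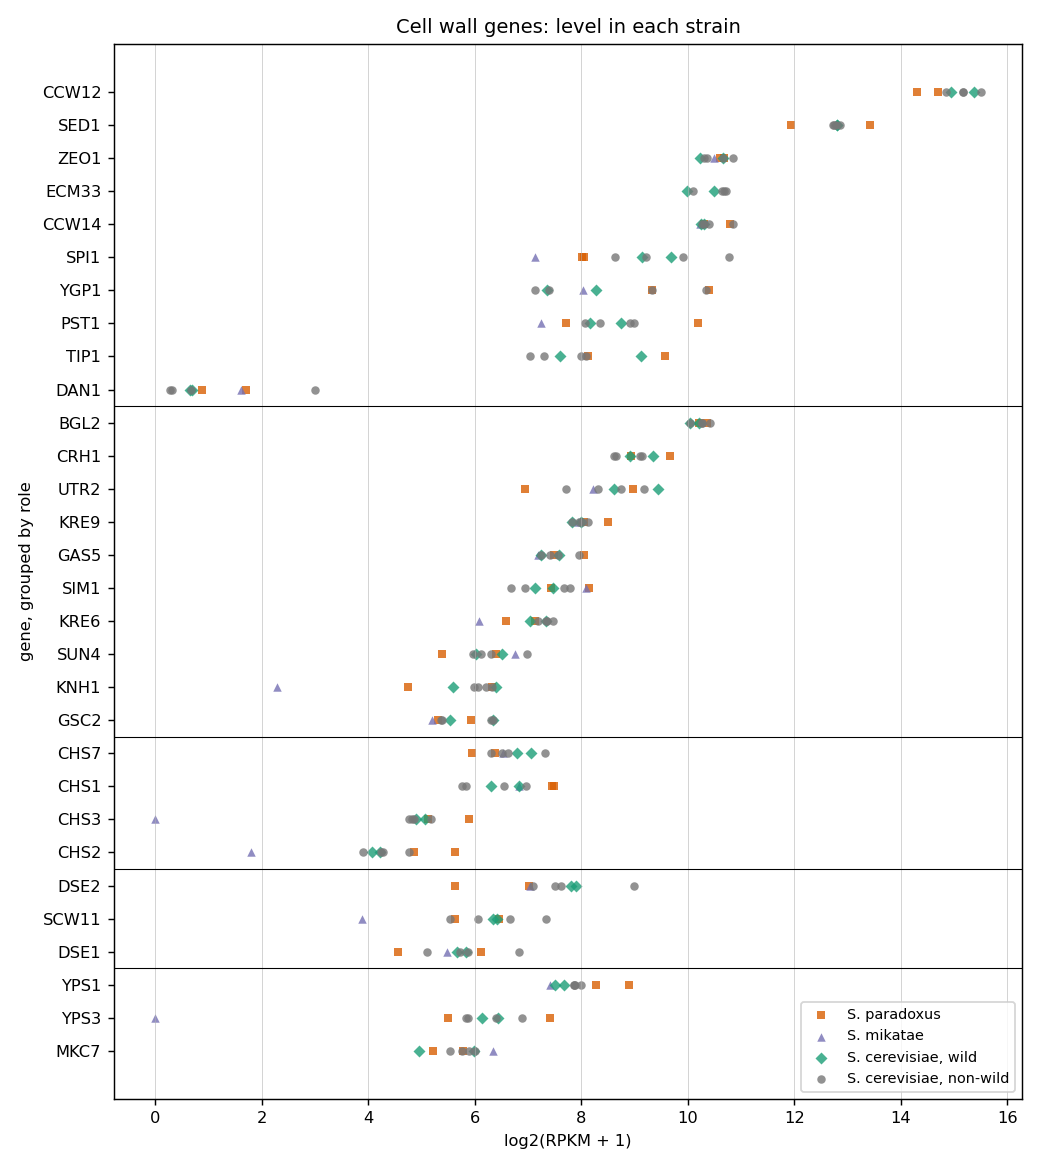
Level of each of the 30 cell wall genes in each strain, on a log2(RPKM + 1) axis, 1 point per strain, genes grouped by role (mannoproteins, glucan, chitin, daughter separation, yapsins from top to bottom) and sorted by mean within a group. CCW12 lies far to the right at 20270 RPKM or more, DAN1 lies at the left at 7.004 RPKM or less, and the S. mikatae points of CHS3 and YPS3 lie at 0.

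SED1 (YDR077W), a GPI mannoprotein that is the main structural wall protein of resting cells, was the most even of the 30 genes within S. cerevisiae. It averaged 7063 ± 213 RPKM over the 6 S. cerevisiae strains (SD, n = 6), a coefficient of variation of 3.02%. In S. paradoxus it stood at 10999 RPKM in N17 and 3905 RPKM in N44, on either side of the narrow S. cerevisiae range of 6813 to 7405 RPKM. ZEO1 (YOL109W), a membrane-associated protein that acts on wall integrity signalling, was the third highest of the 30 genes in S. cerevisiae with a mean of 1475 ± 252 RPKM in S. cerevisiae (SD, n = 6), beside 1561 RPKM in N17, 1645 RPKM in N44 and 1438 RPKM in IFO1815. These last 3 values all fell inside the S. cerevisiae range of 1195 to 1838 RPKM.

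CCW14 (YLR390W-A), a GPI glycoprotein of the inner wall layer, was close to flat in 5 of the S. cerevisiae strains, at 1213 to 1346 RPKM, and reached 1835 RPKM in DBVPG6040. It stood at 1763 RPKM in N17, 1255 RPKM in N44 and 1199 RPKM in IFO1815, so N17 alone came near the DBVPG6040 level. ECM33 (YBR078W), a GPI protein needed for the ordered outer wall, ranged between 1006 and 1677 RPKM in S. cerevisiae and had no value in the other species. Its relative PST1 (YDR055W), a gene known to be induced by wall damage, was lower, at 266 to 507 RPKM in S. cerevisiae with a median of 376 RPKM. PST1 stood at 1164 RPKM in N17, above every S. cerevisiae strain, but at 208 RPKM in N44, below every one, and at 150 RPKM in IFO1815.

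YGP1, SPI1, TIP1 and DAN1 were the least even of the 30 genes. YGP1 (YNL160W), a secreted glycoprotein known from cells that run short of nutrients, had the widest spread on the log2 scale. It stood at 1289 RPKM in Y9 and 638 RPKM in YJM145, against 139 to 307 RPKM in the other 4 S. cerevisiae strains, and at 1351 RPKM in N17, 642 RPKM in N44 and 260 RPKM in IFO1815. SPI1 (YER150W), a GPI wall protein related to SED1 and known from weak acid stress, was likewise highest in Y9 at 1747 RPKM, against 396 to 966 RPKM in the other 5 S. cerevisiae strains. TIP1 (YBR067C), a mannoprotein induced by cold and heat shock, stood at 554 RPKM in DBVPG1788, against 130 to 270 RPKM in the other 5, and at 757 RPKM in N17 and 278 RPKM in N44. DAN1 (YJR150C), a mannoprotein gene of anaerobic cells, was nearly silent, at 0.210 to 0.623 RPKM in 5 S. cerevisiae strains and 7.004 RPKM in Y9.

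The spread among the 6 S. cerevisiae strains was somewhat wider for cell wall genes than for genes at large. The median SD of log2(RPKM + 1) was 0.378 over the 30 genes, ranging from 0.0433 (SED1) to 1.28 (YGP1), beside 0.287 over all 4292 genes with values in those strains and a mean of at least 1. No test was made of this difference.

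Each S. cerevisiae strain was next set against the other 5, and a gene was counted where the strain lay at least 1 log2 unit (a factor of 2) outside their range. With 1 value per strain this rule has no replicate check and gives no p-value. DAN1 and YGP1 were above the range in Y9, by 2.30 and 1.01 log2 units, so that 2 of 30 cell wall genes passed there, beside 0.862% of all 4292 genes. DAN1 passed the filter on low values only because of Y9, as its mean over the strains was 1.60 RPKM with Y9 and 0.921 RPKM without it, under the minimum of 1, so that its place outside the range supports nothing. DSE2 was above it in DBVPG6040, by 1.09 units, which is 1 of 30 beside 1.19%. TIP1 was above it in DBVPG1788, by 1.03 units, which is 1 of 30 beside 0.303%. The distances of YGP1, DSE2 and TIP1 lie close to the limit of 1 unit: after median centring none of these genes passed, and YGP1 did not pass after quantile normalisation either. None of the 30 passed in YPS606, BC187 or YJM145, where 0.233%, 0.233% and 0.0932% of all genes did.

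Other values also stood apart in Y9. The DAN1 value rests on an implied 364 reads in Y9, against 11 to 78 reads in the other 5 strains. HSP12, a small heat shock protein gene, stood at 1792 RPKM in Y9, against 13.6 to 178 RPKM in the other 5 strains. It carried the sum of the 6 measured genes of a stress list, which was 3794 RPKM in Y9, against 1757 to 2861 RPKM in the other 5. Without HSP12 the sum was 2002 RPKM in Y9, inside the 1727 to 2712 RPKM of the others. Of the remaining genes of the list, TSL1 was highest in Y9, at 422 RPKM against 173 to 353 RPKM in the others, and PNC1 was lowest in Y9. Of 6 genes regulated by oxygen and haem, OLE1 carried the sum, which was 2588 RPKM in Y9, against 1417 to 1874 RPKM in the other 5. Without OLE1 it was 689 RPKM in Y9, against 393 to 668 RPKM in the others, with 2 of those 5 genes highest in Y9. No gene of either list was at 0 in these strains, and the part of these differences in the DAN1, SPI1 and YGP1 values was not tested. HSP12, OLE1, TSL1 and PNC1 were chosen for mention after their values were seen.

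**Figure D2:**
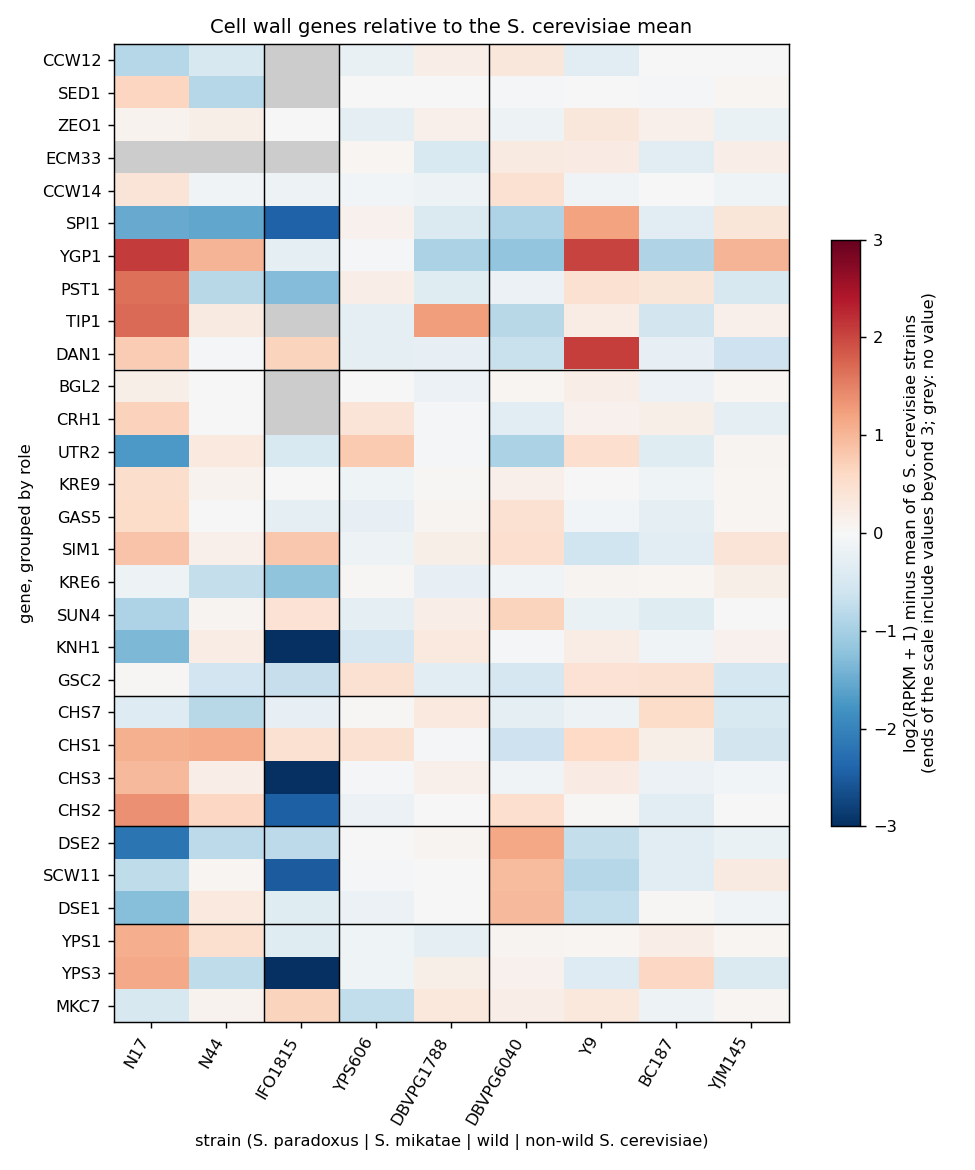
Difference in log2(RPKM + 1) of each strain (columns) from the mean of the 6 S. cerevisiae strains, for each cell wall gene (rows, grouped by role). Red is above that mean, blue below, grey has no value, and the ends of the scale include differences beyond 3 units. The DSE2, SCW11 and DSE1 cells are red in DBVPG6040 and blue in Y9, and YGP1 is red in N17, N44, Y9 and YJM145.

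Among the glucan genes, BGL2 (YGR282C), an abundant glucanase of the wall, was the highest. It averaged 1182 ± 120 RPKM in S. cerevisiae (SD, n = 6), beside 1321 RPKM in N17 and 1180 RPKM in N44, all within the S. cerevisiae range of 1047 to 1359 RPKM. KRE9 (YJL174W) and KRE6 (YPR159W), which act in the assembly of branched beta-glucan, varied little: their coefficients of variation over the 6 S. cerevisiae strains were 8.07% and 10.2%. GAS5 (YOL030W), a glucanosyltransferase that lengthens glucan chains, ranged from 150 to 247 RPKM in S. cerevisiae, beside 264 RPKM in N17, 179 RPKM in N44 and 145 RPKM in IFO1815. GSC2 (YGR032W, also known as FKS2), the alternative glucan synthase subunit, split the S. cerevisiae strains into 78.4 to 80.2 RPKM in YPS606, Y9 and BC187 and 40.1 to 45.4 RPKM in DBVPG1788, DBVPG6040 and YJM145, with none between.

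The surface transglycosylase genes CRH1 (YGR189C) and UTR2 (YEL040W), whose products join chitin to glucan, differed in evenness. CRH1 ranged from 393 to 651 RPKM in S. cerevisiae, beside 809 RPKM in N17 and 491 RPKM in N44. UTR2 was the least even glucan gene, at 209 RPKM in DBVPG6040 and 694 RPKM in YPS606 with a median of 410 RPKM, and it stood at 122 RPKM in N17, 500 RPKM in N44 and 297 RPKM in IFO1815. N17 was thus the lowest of the 9 strains for UTR2 and the highest of 8 for CRH1. The SUN family genes SUN4 (YNL066W) and SIM1 (YIL123W), whose products act on the wall during septation, ranged in S. cerevisiae from 61.2 to 125 RPKM and from 102 to 221 RPKM, and DBVPG6040 was the highest S. cerevisiae strain for both.

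All 4 chitin genes were modestly expressed. CHS7 (YHR142W), which helps the main synthase leave the endoplasmic reticulum, ranged from 78.0 to 158 RPKM in S. cerevisiae, beside 82.6 RPKM in N17, 60.4 RPKM in N44 and 91.0 RPKM in IFO1815. CHS3 (YBR023C), the synthase of most wall chitin, was even within S. cerevisiae at 29.6 ± 3.58 RPKM (SD, n = 6), and stood at 58.7 RPKM in N17 and 33.8 RPKM in N44. N44 lay inside the S. cerevisiae range of 26.1 to 35.3 RPKM for CHS3 and N17 above it. In IFO1815 CHS3 was listed at 0, which in a table of this kind can be a failed estimate.

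The daughter separation genes SCW11 (YGL028C), a glucanase-like wall protein, DSE1 (YER124C), a daughter-specific protein of the wall and bud neck, and DSE2 (YHR143W), a daughter-specific secreted protein that helps to degrade the septum wall, showed the same strains at their extremes. SCW11 stood at 161 RPKM in DBVPG6040 and 45.5 RPKM in Y9, against 65.5 to 101 RPKM in the other 4 S. cerevisiae strains. DSE1 stood at 112 RPKM in DBVPG6040 and 33.5 RPKM in Y9, against 49.9 to 57.9 RPKM in the other 4. DSE2 stood at 505 RPKM in DBVPG6040 and 136 RPKM in Y9, against 181 to 237 RPKM in the other 4. DBVPG6040 was the highest and Y9 the lowest of the 6 strains for each of the 3 genes, with a median difference from the other 5 strains of 1.18 log2 units in DBVPG6040 and -0.88 in Y9, beside 0.18 and 0.02 over all genes. In RNA from whole cultures, a larger share of daughter cells at this stage and more RNA per cell cannot be told apart.

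A single strain holding the extreme is common in this table. DBVPG6040 was the highest S. cerevisiae strain for 36.8% of all genes and Y9 the lowest for 13.9%, beside 11 and 5 of the 30 cell wall genes. In DBVPG6040 the genes of chromosomes I and XI lay above the other 5 strains by a median of 0.80 and 0.74 log2 units. None of the 30 cell wall genes lies on either chromosome, and the part of these chromosomes in the DBVPG6040 values was not tested.

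**Figure D3:**
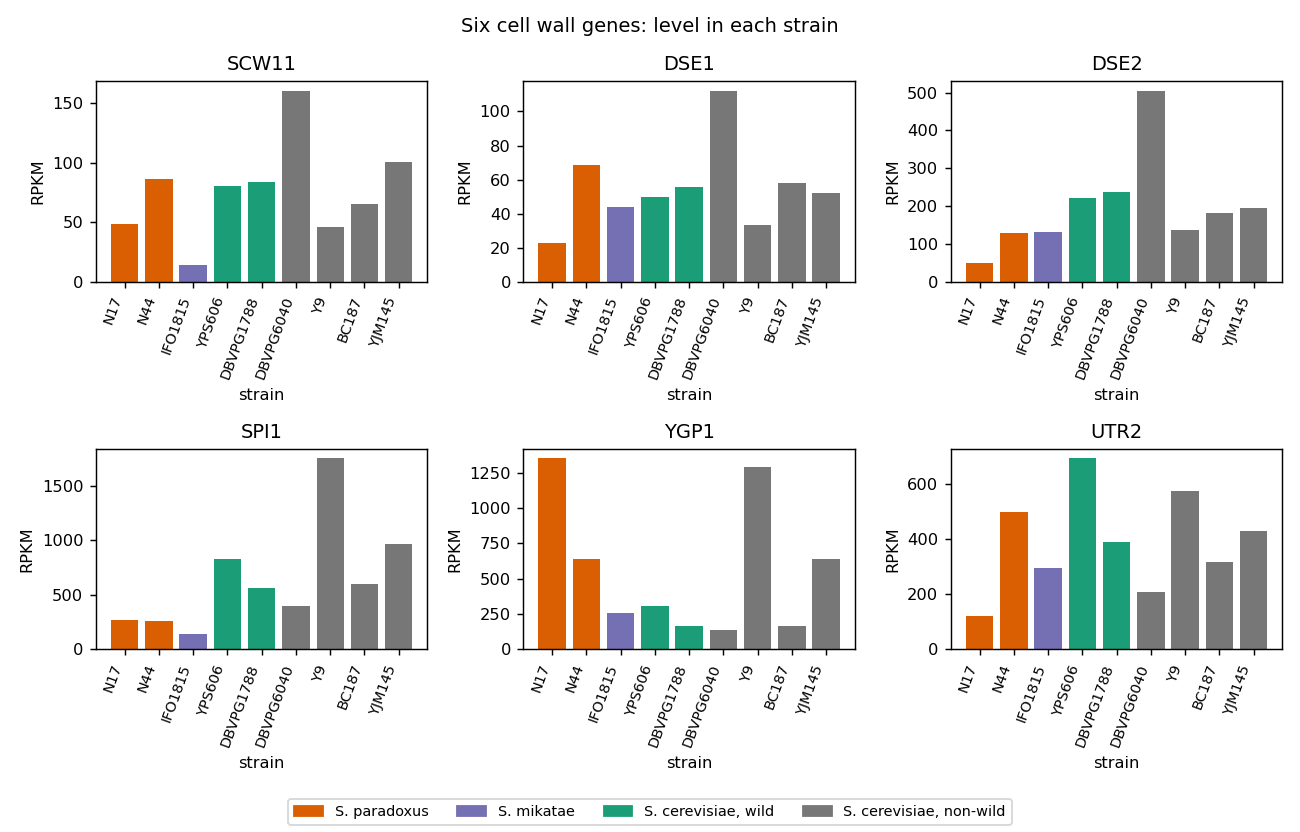
Level (RPKM, linear axes from 0) of SCW11, DSE1 and DSE2 (top) and SPI1, YGP1 and UTR2 (bottom) in each strain, 1 bar per strain with no error bar because each strain has 1 value. DBVPG6040 has the tallest bar for the 3 separation genes (161, 112 and 505 RPKM), and Y9 has the tallest S. cerevisiae bar for SPI1 (1747 RPKM) and YGP1 (1289 RPKM).

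Of the yapsins, YPS1 (YLR120C) and YPS3 (YLR121C) are neighbours on chromosome XII and MKC7 (YDR144C) lies on chromosome IV. YPS1, the main yapsin, was even within S. cerevisiae at 222 ± 26.2 RPKM (SD, n = 6). YPS3 ranged from 56.2 to 117 RPKM in S. cerevisiae, beside 169 RPKM in N17, 44.1 RPKM in N44 and a listed 0 in IFO1815. MKC7 ranged from 29.9 RPKM in YPS606 to 63.2 RPKM in Y9, beside 36.0 RPKM in N17, 54.2 RPKM in N44 and 80.5 RPKM in IFO1815, the highest of the 9 strains.

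The S. paradoxus strains N17 and N44 were then compared with the 6 S. cerevisiae strains. CHS1, CHS2 and YPS1 rose in S. paradoxus and SPI1 and DSE2 fell, while the other 24 of 29 cell wall genes tested did not pass (limma on log2(RPKM + 1), two-sided, Benjamini-Hochberg adjusted p under 0.05 over 4283 genes). These 5 of 29 genes stand beside 24.0% of all genes called, 3 of 29 higher beside 21.6% and 2 of 29 lower beside 2.47%. Among all genes the median difference was 0.31 log2 units towards S. paradoxus, and among the 29 cell wall genes it was 0.14. By role, 0 mannoprotein genes were called higher and 1 of 9 lower, 0 of 10 glucan genes were called, 2 of 4 chitin genes were called higher, 1 of 3 separation genes lower and 1 of 3 yapsins higher.

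CHS1 (YNL192W), the chitin synthase that repairs the wall after cell separation, stood at 173 RPKM in N17 and 178 RPKM in N44, against 53.0 to 124 RPKM in S. cerevisiae with a median of 85.7 RPKM. The groups did not overlap, and the difference was 1.09 ± 0.33 log2 units (SE; limma adjusted p = 0.0353). CHS2 (YBR038W), the synthase of the primary septum, stood at 48.1 RPKM in N17 and 28.2 RPKM in N44, against 13.9 to 26.0 RPKM in S. cerevisiae with a median of 17.8 RPKM. N44 cleared the highest S. cerevisiae strain, DBVPG6040, by a narrow margin, and the difference was 0.99 ± 0.26 log2 units (SE; limma adjusted p = 0.0215). YPS1 stood at 472 RPKM in N17 and 310 RPKM in N44, against 181 to 255 RPKM in S. cerevisiae with a median of 231 RPKM. Again the groups did not overlap, with a difference of 0.79 ± 0.23 log2 units (SE; limma adjusted p = 0.0307).

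SPI1 was nearly equal in both S. paradoxus strains, at 265 RPKM in N17 and 257 RPKM in N44, against 396 to 1747 RPKM in S. cerevisiae with a median of 710 RPKM. The groups did not overlap, and the difference was -1.53 ± 0.46 log2 units (SE; limma adjusted p = 0.0346). DSE2 stood at 48.7 RPKM in N17 and 129 RPKM in N44, against 136 to 505 RPKM in S. cerevisiae with a median of 208 RPKM. N44 lay just under Y9, the lowest S. cerevisiae strain, and the difference was -1.49 ± 0.47 log2 units (SE; limma adjusted p = 0.0420). The other separation genes did not pass: SCW11 differed by -0.35 log2 units and DSE1 by -0.50. Relative to the shift of 0.31 in the median gene, the differences were 0.78 for CHS1, 0.68 for CHS2, 0.48 for YPS1, -1.84 for SPI1 and -1.80 for DSE2.

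CCW12 differed by -0.67 ± 0.28 log2 units (SE; limma adjusted p = 0.106) and did not pass, although its groups do not overlap. Counting genes without overlap gives 6 of 29, the 5 called genes and CCW12, beside 35.9% of all genes. YGP1 had the largest difference, 1.56 log2 units, but with a 95% interval of -0.13 to 3.26 it did not pass. SED1 differed by -0.11 log2 units with an interval of -0.86 to 0.64, N17 lying above and N44 below every S. cerevisiae strain.

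**Figure D4:**
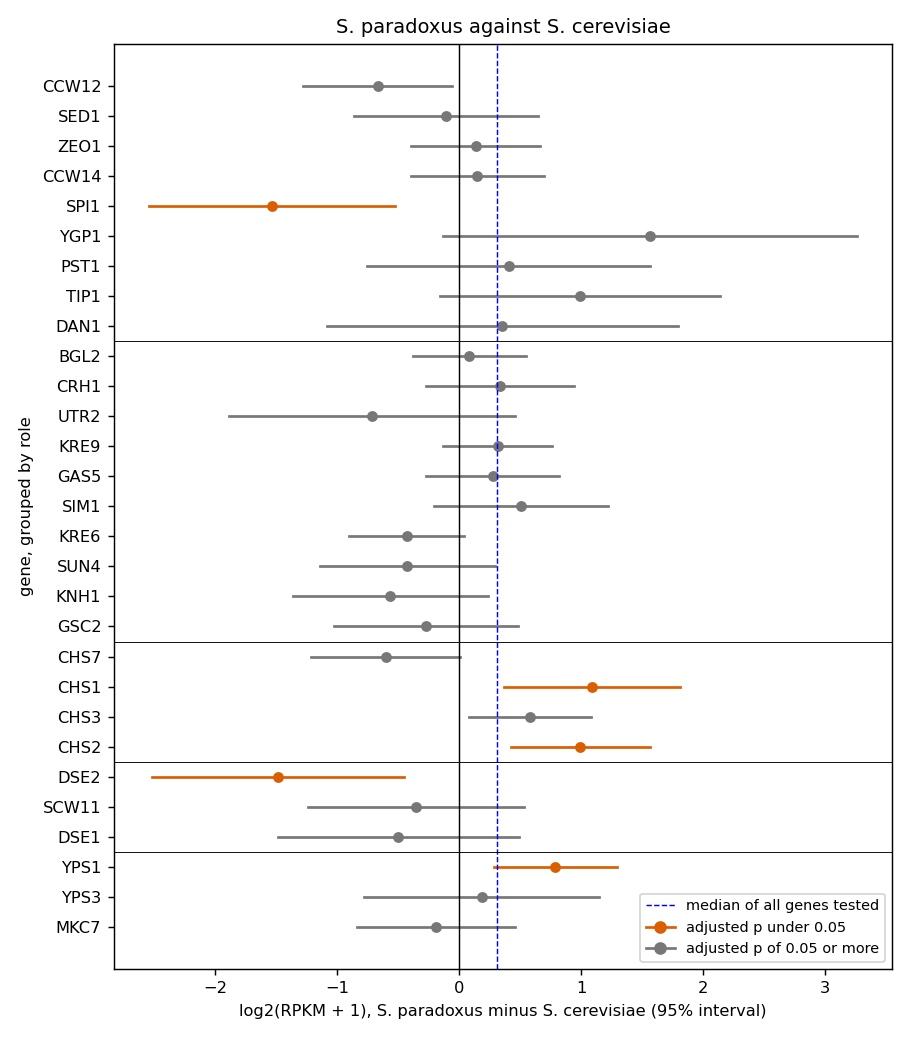
Difference in log2(RPKM + 1), S. paradoxus (2 strains) minus S. cerevisiae (6 strains), for the 29 cell wall genes tested, with 95% intervals from limma. Orange genes have an adjusted p under 0.05, grey genes do not, and the dashed line is the median of all genes at 0.31: CHS1, CHS2 and YPS1 lie to its right and SPI1 and DSE2 to the left of 0.

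The calls depended on the scaling. Where each strain was centred on its median gene, CHS1, CHS2 and YPS1 no longer passed (limma adjusted p = 0.172, 0.0720 and 0.199) and CCW12 did, at -0.998 log2 units (limma adjusted p = 0.0208), while SPI1 and DSE2 still passed. After quantile normalisation YPS1, SPI1 and DSE2 passed and CHS1 and CHS2 did not. The calls also changed as strains were left out, and without N17 or N44 the lone S. paradoxus strain is assumed to vary as the S. cerevisiae strains do. With N17 left out 0 of the 29 genes passed, with YJM145 left out 1, with YPS606 or DBVPG1788 left out 2 each and with BC187 left out 3, whereas 5 passed without DBVPG6040 and 6 each without N44 (KNH1, PST1 and CHS3 added, SPI1 and CHS1 lost) or without Y9 (YGP1 added). With N17 left out, DSE2 differed by -0.79 log2 units, CHS2 by 0.62 and YPS1 by 0.49, while SPI1 (-1.55) and CHS1 (1.11) kept their size but not their call.

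The 2 S. paradoxus strains differed from each other in many of these genes. This comparison was added after the data were seen and has 1 value on each side, so it carries no test. N17 lay at least 1 log2 unit from N44 in 10 of 29 cell wall genes, beside 10.9% of all genes. N17 was above N44 for PST1 by 2.48 log2 units, YPS3 by 1.91, SED1 by 1.49, TIP1 by 1.44 and YGP1 by 1.07. It was below N44 for UTR2 (a difference of -2.03 units), KNH1 (-1.58), DSE1 (-1.57), DSE2 (-1.39) and SUN4 (-1.02). Over all genes of a role, N17 was above N44 for 7 of 9 mannoprotein genes, 7 of 10 glucan genes, 3 of 4 chitin genes, 2 of 3 yapsins and 0 of 3 separation genes. The median difference was 0.49 log2 units over the 29 cell wall genes, beside 0.03 over all genes. The share of all genes with N17 above N44 was not counted, so nothing is read from the counts by role. PST1 stood at 1164 RPKM in N17 and 208 RPKM in N44, and KNH1 (YDL049C), a relative of KRE9, at 25.7 RPKM in N17 and 79.0 RPKM in N44. The stress list summed to 3227 RPKM in N17 and 1777 RPKM in N44 and the haploid and mating list to 3623 RPKM in N17 and 811 RPKM in N44, and their part in these differences was not tested.

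In S. mikatae, the value of IFO1815 was set against the range of the 6 S. cerevisiae strains, again without a test because there is 1 strain. Of the 22 cell wall genes above 0, IFO1815 lay at least 1 log2 unit below the range for KNH1, CHS2, SCW11 and SPI1 and above it for none, which is 4 of 22 beside 10.2% of all genes in either direction and 7.86% below. KNH1 stood at 3.88 RPKM in IFO1815, against 47.1 to 83.2 RPKM in S. cerevisiae, a distance from the range of -3.30 log2 units. CHS2 stood at 2.47 RPKM in IFO1815, against 13.9 to 26.0 RPKM in S. cerevisiae, a distance of -2.10 units. Of the other cell wall genes on its chromosome, II, CHS3 was listed at 0 in IFO1815 and TIP1 and ECM33 had no value there. Whether the CHS2 value is a failed estimate was not tested. SCW11 stood at 13.8 RPKM in IFO1815, against 45.5 to 161 RPKM in S. cerevisiae, a distance of -1.65 units. SPI1 stood at 140 RPKM in IFO1815, against 396 to 1747 RPKM in S. cerevisiae, a distance of -1.497 units. CHS2 no longer passed with a pseudocount of 10 or after quantile normalisation, which left 3 genes. In S. paradoxus SPI1 was also under every S. cerevisiae strain, but CHS2 was above every one.

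Genes close to the limit in IFO1815 were KRE6, at 66.5 RPKM against 130 to 175 RPKM in S. cerevisiae and at a distance of -0.96 log2 units, and PST1, at -0.82 units. Of the other separation genes, DSE1 (43.7 RPKM) lay inside the S. cerevisiae range and DSE2 (130 RPKM) at a distance of -0.06 log2 units from it. The part of failed estimates, of which the 426 genes listed at 0 may hold some, in the low values of IFO1815 was not tested.

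Within S. cerevisiae the wild strains YPS606 and DBVPG1788 were compared with the non-wild strains DBVPG6040, Y9, BC187 and YJM145. No cell wall gene was called: 0 of 30 passed in the limma test, beside 0% of all 4292 genes. The unadjusted limma p was under 0.05 for 0 of the 30 and for 55 of the 4292 genes. These are too few for 0 of 30 to set the cell wall genes apart. The median difference was -0.09 log2 units over the cell wall genes and -0.06 over all genes. YPS1 alone had groups without overlap, at 202 RPKM in YPS606 and 181 RPKM in DBVPG1788 against 230 to 255 RPKM in the non-wild strains, which is 1 of 30 beside 4.80% of all genes, and its difference was -0.31 ± 0.20 log2 units (SE; limma adjusted p = 1.00). For CCW12 the difference was -0.02 log2 units with a 95% interval of -0.74 to 0.70, and for SED1 it was 0.02 with an interval of -0.52 to 0.57. With 2 wild strains such intervals leave room for differences well above those measured.

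The wider wall pathway was followed in gene lists of its own, whose counts stand beside the 24.0% of all genes called in S. paradoxus against S. cerevisiae, and nothing is read from them as lists. Of 10 measured genes of cell wall integrity signalling, SWI6, a cofactor of the transcription factor Swi4, rose in S. paradoxus (0.65 log2 units, limma adjusted p = 0.0340). In the same list WSC3, a surface stress sensor, fell (-0.89, limma adjusted p = 0.0435). Of 11 other wall genes, SKN1, a relative of KRE6, rose by 0.89 log2 units (limma adjusted p = 0.0209), the chitin deacetylase genes of the spore wall CDA1 and CDA2 by 3.35 and 1.52 (limma adjusted p = 0.00906 and 0.0142), and the mannoprotein gene TIR4 dropped by 0.90 (limma adjusted p = 0.0435). CDA1 stood at 55.5 RPKM in N17 and 5.92 RPKM in N44, against 0.218 to 3.54 RPKM in S. cerevisiae. None of 6 stress genes was called, and of 6 oxygen and haem genes CYC7 was called higher by 2.00 log2 units (limma adjusted p = 0.0375). In wild against non-wild S. cerevisiae none of these genes was called.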

How the data were processed

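Polyadenylated RNA (200 ng per library) was sequenced in 10 libraries of 9 strains, with inserts of about 250 bp and 15 PCR cycles, per the labels' protocols. The submitters' processing notes name cutadapt, TopHat, Cufflinks and the build R64, without their roles or versions. The authors deposited 1 value per gene and strain, treated here as RPKM, a unit that the labels and file headers do not name. In the S. cerevisiae strains, deposited low values multiplied by the R64 gene length were whole multiples of a constant step in 93.1% to 96.5% of cases (tolerance 0.05, at least 90% required). The RPKM of S. paradoxus and S. mikatae rest on reads whose alignment is not described in the sources used here. Of 4325 gene identifiers, 4284 matched an R64 locus tag and 41 did not. No cell wall gene overlaps another R64 gene.

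Values were compared on log2(RPKM + 1), which understates the change of low genes, for genes with a mean of at least 1 and a value in every strain compared. Differences between groups were tested with limma 3.58.1 in R 4.3.3 (eBayes with a trend, two-sided, Benjamini-Hochberg over all genes, threshold 0.05). The fit was also run on simulated data with equal spread in both groups and no shift over all genes. The real groups need not share these traits, so that run is no check of the calls. The rule as first written asked for a value in all 9 strains, and was read as the strains compared, since 6 cell wall genes lack a value in IFO1815. Under the stricter reading the same 5 genes passed in S. paradoxus. Single strains were compared by a range rule without a test. No count test was run, as RPKM are not counts. The members, lists and tests were chosen with earlier results of these data known. Named in full were genes past a threshold or outside a range, those with 1 strain far from the rest, and the 3 with the highest mean, and the other members are given by level. Alternatives covered pseudocounts of 0.1 and 10, filters, scalings, a gap of 0.5 and leaving out each strain. Labels give no batch or date. Figures and tables used Python 3.11.15 with pandas 2.3.3. Some related results are not reported here.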

Additional observations from a re-analysis of the deposited data

Results flagged for a closer look

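Over the 6 S. cerevisiae strains, 2 of the 30 cell wall genes had 1 strain so far from the others that the gap exceeded the 95% critical value of Dixon's ratio on the log2(RPKM + 1) scale, beside 1.5 that chance alone would give at about 1 in 20. CCW14 reached 1835 RPKM in DBVPG6040, against 1213 to 1346 RPKM in the other 5 strains. DAN1 reached 7.004 RPKM in Y9, against 0.210 to 0.623 RPKM in the other 5 strains, but it was among the genes examined only because Y9 lifted its mean above the minimum of 1 RPKM (0.921 RPKM without Y9), so this gap follows in part from that choice.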

How the results depend on the processing

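Of 124 combinations of a count of called genes with an alternative, 100 stayed within 1.5 times the reported count. Counts of 0 that stayed at 0 are among these 100 and say nothing about stability. The measure also compares only the counts, not which genes were called. In S. paradoxus against S. cerevisiae, 5 cell wall genes and 1030 genes in all were called, against 3 and 652 after quantile normalisation, 3 and 643 after median centring, and 1 and 265 with IFO1815 added to the S. paradoxus strains. Among all genes the split was 924 higher and 106 lower as deposited, 336 and 316 after quantile normalisation, and 339 and 304 after median centring. With IFO1815 added CHS2 reversed to -0.15 log2 units (limma adjusted p = 0.901). Leaving out each strain gave 0 (without N17) to 6 (without N44 or Y9) cell wall genes and 426 (without N17) to 1194 (without DBVPG6040) genes in all, with 2 cell wall genes without YPS606, 2 without DBVPG1788 and 644 genes in all without N44. The same step in wild against non-wild S. cerevisiae gave 0 cell wall genes throughout and 0 to 1 genes in all, and 4 to 5 cell wall genes below the range in IFO1815. Y9 had 1 cell wall gene outside the range with a pseudocount of 10 or a mean of at least 10 (YGP1), 1 after quantile normalisation or median centring (DAN1, YGP1 being lost), and 5 at a gap of 0.5. Median centring left 0 in DBVPG1788 and 0 in DBVPG6040. At a gap of 0.5 there were 5 in DBVPG6040, 1 in YPS606 and 21 in N17 against N44. Of 100 combinations for single genes, 27 lost the call, 1 gained it and 1 reversed. These 100 include 7 settings and 8 strains left out for CCW12, which had no call to lose. The reversed combination, CHS2 with IFO1815 added, lost its call as well and is not among the 27. The cause of these changes was not tested. No paired analysis was possible because no replicate number links a strain to another. Depth limits DAN1, at 11 reads in DBVPG6040, while each other cell wall gene had an implied 2906 reads or more in every S. cerevisiae strain.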
